A study of Homo sapiens with 4 samples.

Results

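The genes described here serve class I antigen presentation, from the peptide-binding chains to their transcriptional activator, together with the checkpoint ligand PD-L1. They were chosen by symbol, with earlier results of these data known. They made up 9 of the 32973 genes listed: HLA-B, HLA-C, HLA-E, B2M, TAP1, TAP2, TAPBP, NLRC5 and CD274, the gene for PD-L1. Each was found as a single entry. Transcripts were sequenced in 2 human bladder cancer cell lines, each stably transfected with a BCUC-1 overexpression plasmid or with the empty vector, in a search for genes that act downstream of it. BCUC-1 is the circular RNA hsa_circ_0001361. The groups were T24T BCUC-1, T24T vector, UMUC3 BCUC-1 and UMUC3 vector, all grown in RPMI-1640 with serum. Each group held 1 library, so no value has a replicate, and the libraries of a line share its genotype but differ in treatment. The level of the circular RNA itself was not analysed here.

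Class I molecules show fragments of intracellular proteins to CD8 T cells. A heavy chain such as HLA-B or HLA-C pairs with beta-2-microglobulin (B2M) in the endoplasmic reticulum, where the TAP1-TAP2 transporter delivers peptides and tapasin (TAPBP) holds the empty molecule at the transporter until a peptide is bound. NLRC5 is the transactivator that drives class I, B2M and TAP1 promoters, and interferon gamma induces it together with its targets and with PD-L1, which restrains T cells through PD-1. Tumour cells are known to lose parts of this pathway.

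The libraries held 23588847 reads in T24T BCUC-1, 23679229 in T24T vector, 22730112 in UMUC3 BCUC-1 and 26497894 in UMUC3 vector. Of 14 epithelial and urothelial markers, KRT8, KRT18 and KRT7 were the most abundant, with KRT8 at 146 and 133 RPKM in T24T BCUC-1 and vector and 13.2 and 13.0 RPKM in UMUC3 BCUC-1 and vector. RPKM is reads per kilobase of gene and 1000000 assigned reads. Of the 14, 4 could be tested between the lines, 3 were higher in T24T and PPARG did not pass. Among all 15415 genes tested, 40.8% were called higher in T24T and 29.6% lower. EPCAM was at most 0.219 RPKM, CDH1 at most 0.00686 RPKM and UPK3A at most 0.0419 RPKM in any library. The uroplakin UPK1B had 55 and 48 reads in T24T BCUC-1 and vector and was at 0 in both UMUC3 libraries. Thus the defining epithelial adhesion genes were near 0 in both lines. Of 12 leukocyte markers, 7 were listed. CD68, a lysosomal glycoprotein of macrophages, stood at 6.78 and 7.45 RPKM in T24T BCUC-1 and vector, and at 124 and 119 RPKM in UMUC3 BCUC-1 and vector. The other 6 listed leukocyte genes were at most 0.213 RPKM, and the 9 listed fibroblast and endothelial genes summed to at most 0.545 RPKM per library. The part of these marker differences in the results was not tested.

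The promoters of the members are shown for their sequence only. Their part in the differences between the lines was not tested. RefSeq windows (GRCh38.p14) matched 7 of the 9 members. The 250 bases before the start are printed in the direction of transcription. They are given for HLA-B and HLA-C, which are related genes, for B2M, for TAPBP, which ran against the rest, and for CD274. Capitals mark matches, on either strand, to a pair of GAAA words spaced by any 2 bases or to GAANNGAAA (both the letters of interferon-responsive elements), GGGATTCCC (an NF-kB-like element), TGACGC (an X2-like element) and ATTGG (the Y box), all of which may overlap.
HLA-B, chr6:31357180-31357429, minus strand: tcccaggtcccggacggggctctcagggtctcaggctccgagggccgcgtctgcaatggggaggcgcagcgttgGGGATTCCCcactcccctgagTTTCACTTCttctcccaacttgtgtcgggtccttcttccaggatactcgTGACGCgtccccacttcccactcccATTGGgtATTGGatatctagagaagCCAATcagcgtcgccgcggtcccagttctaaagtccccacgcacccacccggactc
HLA-C, chr6:31272093-31272342, minus strand: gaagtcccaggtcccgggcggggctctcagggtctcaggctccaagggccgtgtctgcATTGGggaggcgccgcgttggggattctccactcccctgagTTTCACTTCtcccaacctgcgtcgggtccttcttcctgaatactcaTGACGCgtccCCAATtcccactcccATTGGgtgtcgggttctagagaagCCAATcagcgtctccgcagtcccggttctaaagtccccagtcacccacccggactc
B2M, chr15:44711267-44711516, plus strand: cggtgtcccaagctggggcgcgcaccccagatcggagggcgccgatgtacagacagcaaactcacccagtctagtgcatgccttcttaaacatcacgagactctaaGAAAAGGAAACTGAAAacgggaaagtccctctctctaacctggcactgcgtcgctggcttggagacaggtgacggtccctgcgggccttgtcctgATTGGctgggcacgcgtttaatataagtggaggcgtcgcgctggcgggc
TAPBP, chr6:33314079-33314328, minus strand: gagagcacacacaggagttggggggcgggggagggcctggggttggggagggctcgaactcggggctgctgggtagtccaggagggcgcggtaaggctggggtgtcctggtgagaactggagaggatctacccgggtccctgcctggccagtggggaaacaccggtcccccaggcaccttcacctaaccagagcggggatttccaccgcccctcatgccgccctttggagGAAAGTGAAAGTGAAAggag
CD274, chr9:5450292-5450541, plus strand: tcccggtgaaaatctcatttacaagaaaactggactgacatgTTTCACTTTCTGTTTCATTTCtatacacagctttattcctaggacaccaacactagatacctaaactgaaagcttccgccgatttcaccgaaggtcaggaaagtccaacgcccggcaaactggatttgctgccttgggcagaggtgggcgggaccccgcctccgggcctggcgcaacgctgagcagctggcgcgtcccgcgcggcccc

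The pair of GAAA words was found in the windows of B2M, TAP1, TAP2, TAPBP and CD274, 5 of 7, and in 3.02% of 35116 promoter windows of the same length. In B2M the matches spanned 144 to 129 bases before the start, in TAP1 134 to 119, in TAP2 58 to 49, in TAPBP 20 to 5 and in CD274 208 to 193. HLA-B and HLA-C instead held the shorter GAANNGAAA, at 155 to 147 and 151 to 143 bases before the start, as did TAP2 and CD274. That form occurred in 6.56% of windows. TGACGC was in HLA-B, HLA-C and TAP2 and in 7.67% of windows, and ATTGG was in HLA-B, HLA-C, B2M and TAP1 and in 32.0% of windows. GGGATTCCC was in HLA-B alone among the 7, and in 0.362% of windows. TTCNNNGAA, the letters of a STAT-binding element, was in CD274 alone among the 7, and in 6.57% of windows. The HLA-B and HLA-C windows were 89.0% identical.

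The heavy chains were lower in T24T than in UMUC3. HLA-B, a classical heavy chain at chromosome 6 from 31353872 to 31357188, had 19.8 and 21.5 RPKM in T24T BCUC-1 and vector, and 40.0 and 33.6 RPKM in UMUC3 BCUC-1 and vector. HLA-C, the neighbouring classical gene from 31268749 to 31272130, which also engages receptors of natural killer cells, had 35.0 and 35.6 RPKM in the T24T libraries and 55.6 and 52.8 RPKM in the UMUC3 libraries. HLA-E, which presents signal peptides of other class I chains to natural killer cells and lies from 30489467 to 30494205, had 23.1 and 25.2 RPKM in T24T and 30.2 and 29.7 RPKM in UMUC3. For each of these genes both T24T libraries lay below both UMUC3 libraries.

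With limma on log2(RPKM + 1), the T24T minus UMUC3 difference was -0.80 (SE 0.096, adjusted p = 0.000368) for HLA-B, -0.60 (SE 0.066, adjusted p = 0.000243) for HLA-C and -0.30 (SE 0.072, adjusted p = 0.0088) for HLA-E. The HLA-E call was lost without the T24T BCUC-1 library (limma adjusted p = 0.0811) and with no filter on low values (limma adjusted p = 0.0569). By ratio of reads per 1000000 assigned (RPM), HLA-B in T24T was 0.495 of UMUC3 (95% interval 0.464 to 0.528) in the BCUC-1 libraries and 0.639 (0.600 to 0.681) in the vector libraries. The BCUC-1 minus vector log2 RPM difference of HLA-B was 0.37 higher in UMUC3 than in T24T, and 0.21 higher with the GC trend of each line removed. The difference between the lines was not tested. How reads were placed among related HLA genes is not given in the sources used here. Of all 50-base words in their GENCODE 29 transcripts, 2.72% of those of HLA-B, 5.38% of HLA-C and 3.94% of HLA-E also occur in another class I HLA gene. These words come from reference transcripts, and the HLA alleles of the lines were not examined. The part of allele differences in the HLA values was not tested. An opposite-strand gene, XXbac-BPG248L24.12, covers 542 of the HLA-B exon bases. It had 138 and 158 reads in the T24T libraries, against 371 and 438 reads in the UMUC3 libraries. HLA-B had 1407 and 1532 reads in T24T and 2738 and 2682 reads in UMUC3. The part of the shared bases in the HLA-B difference was not tested.

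B2M, the invariant light chain on chromosome 15 from 44711477 to 44718877, had 30.0 RPKM in both T24T libraries, and 58.8 and 61.6 RPKM in UMUC3 BCUC-1 and vector. Its difference was -0.98 (SE 0.065, limma adjusted p = 2.7e-05), lower in both T24T libraries. The RPM ratio was 0.510 (0.491 to 0.529) in the BCUC-1 libraries and 0.487 (0.470 to 0.505) in the vector libraries, so the size of the difference hardly depended on which pair was compared.

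The TAP transporter subunits were also lower in T24T, and tapasin was higher. TAP1, on chromosome 6 from 32845209 to 32853978, had 2.93 and 2.96 RPKM in T24T BCUC-1 and vector and 6.23 and 5.40 RPKM in UMUC3 BCUC-1 and vector. TAP2, from 32821833 to 32838780, had 13.6 and 13.1 RPKM in T24T and 24.8 and 24.9 RPKM in UMUC3. The limma differences were -0.79 (SE 0.10, adjusted p = 0.000503) for TAP1 and -0.85 (SE 0.071, adjusted p = 7.57e-05) for TAP2. Their proteins form a heterodimer, and per length the TAP2 level was 3.99 to 4.66 times the TAP1 level over the 4 libraries. TAP2 shares 2064 exon bases, 32.3% of its own, with the same-strand gene XXbac-BPG246D15.9, and TAP1 shares 456 bases with the opposite-strand PSMB8-AS1, so their levels may hold reads of those genes. XXbac-BPG246D15.9 had 1457 and 1339 reads in T24T BCUC-1 and vector and 2584 and 2754 reads in UMUC3 BCUC-1 and vector, where TAP2 had 2056 and 1989 reads in T24T and 3608 and 4210 reads in UMUC3. The part of the shared bases in the TAP2 difference was not tested.

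TAPBP, on chromosome 6 from 33299694 to 33314387, had 22.6 and 23.9 RPKM in T24T BCUC-1 and vector, and 10.7 and 9.37 RPKM in UMUC3 BCUC-1 and vector. Its difference was 1.14 (SE 0.088, limma adjusted p = 5.07e-05), higher in both T24T libraries. The RPM ratio was 2.12 (1.98 to 2.27) in the BCUC-1 libraries and 2.56 (2.39 to 2.73) in the vector libraries. Per length, TAPBP was 7.72 and 8.09 times TAP1 in T24T BCUC-1 and vector, and 1.71 and 1.73 times TAP1 in UMUC3 BCUC-1 and vector.

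NLRC5, the class I transactivator on chromosome 16 from 56989485 to 57083531, had the widest gap of the 9 genes by RPM ratio. It had 21 and 26 reads in T24T BCUC-1 and vector, which is 0.0719 RPKM (95% interval 0.0445 to 0.110) and 0.0886 RPKM (0.0579 to 0.130). In UMUC3 it had 377 and 340 reads, which is 1.34 RPKM (1.21 to 1.48) with BCUC-1 and 1.04 RPKM (0.929 to 1.15) with vector. The RPM ratio of T24T to UMUC3 was 0.0537 (0.0328 to 0.0833) in the BCUC-1 libraries and 0.0856 (0.0551 to 0.128) in the vector libraries. On log2(RPKM + 1), which understates the change of a low gene, the limma difference was -1.01 (SE 0.10, adjusted p = 0.000147), and with limma-voom on the recovered reads it was -3.85 (SE 0.26). NLRC5 passed the floor of 1 RPKM through the UMUC3 libraries alone, so it could only enter the test as a gene that differs.

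CD274, on chromosome 9 from 5450503 to 5470566, was low in both lines. It had 11 and 23 reads in T24T BCUC-1 and vector, and 63 and 78 reads in UMUC3 BCUC-1 and vector. These are 0.114 RPKM (0.0567 to 0.203) and 0.236 RPKM (0.150 to 0.355) in T24T, and 0.675 RPKM (0.518 to 0.863) and 0.717 RPKM (0.566 to 0.894) in UMUC3. The intervals of the lines did not overlap. CD274 lay under the floor and outside the main test. With limma-voom and a floor of 20 reads over the 4 libraries, which was added with the data in view, the T24T minus UMUC3 difference was -1.99 (SE 0.34, limma-voom adjusted p = 1.4e-08), where 28.6% of 20301 genes were called lower in T24T and 39.9% higher. With no filter on low values it was -0.53 on log2(RPKM + 1) (limma adjusted p = 0.031). These fits left 1 residual degree of freedom and took most of their variance from other genes, so the p-values describe these libraries.

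**Figure D1:**
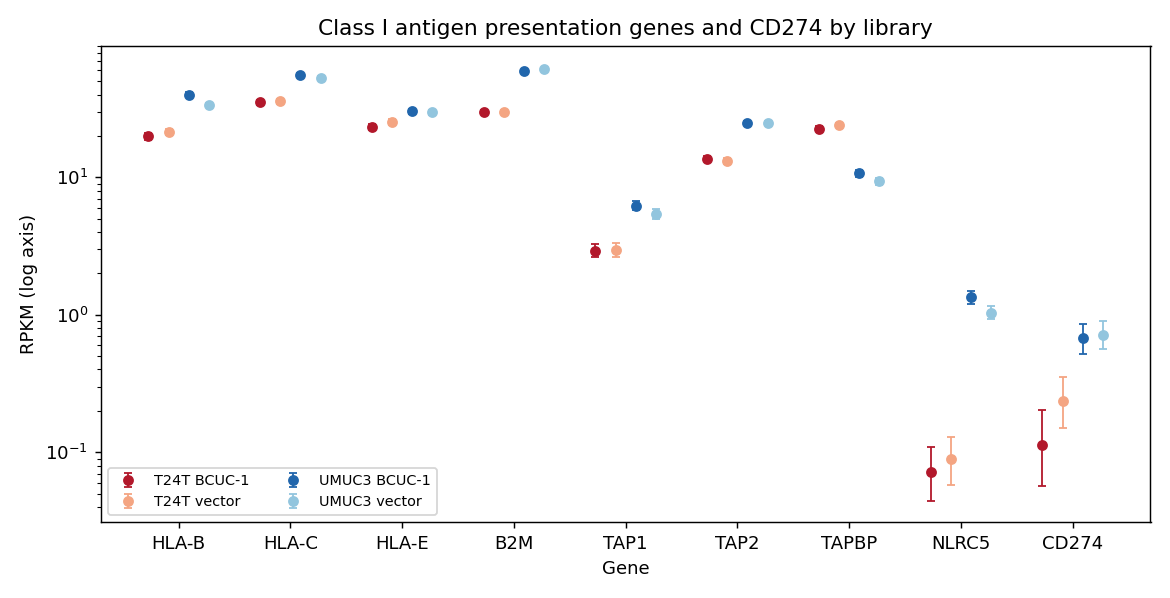
RPKM of each gene in each library on a log axis, with exact Poisson 95% intervals that cover counting error only. HLA-B, HLA-C, HLA-E, B2M, TAP1, TAP2, NLRC5 and CD274 lie lower in both T24T libraries than in both UMUC3 libraries, and TAPBP lies higher, at 22.6 and 23.9 RPKM against 10.7 and 9.37 RPKM.

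Of the 9 genes, 8 could be tested, 7 were lower in T24T and 1 was higher, where 29.6% of all 15415 genes tested were called lower and 40.8% higher. A line difference was therefore common, and with NLRC5 set aside, which had to differ, the lower genes numbered 6. Over all 9 genes, NLRC5 included, the median log2 RPM difference was -0.89, against 0.14 over the 20301 genes with at least 20 reads. The 9 genes were chosen with earlier results of these data known, so their counts and median only describe these libraries. The median log2(RPKM + 1) difference of the tested genes was 0.10 and moved to -0.015 with all libraries brought to the same median. Under that scaling HLA-B stood at -0.94, HLA-C at -0.75, HLA-E at -0.44, B2M at -1.12, TAP1 at -0.90, TAP2 at -0.98, NLRC5 at -1.06 and TAPBP at 1.00. Each line is a single genotype, so line and culture cannot be told apart, nor can fewer expressing cells and less RNA per cell.

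**Figure D2:**
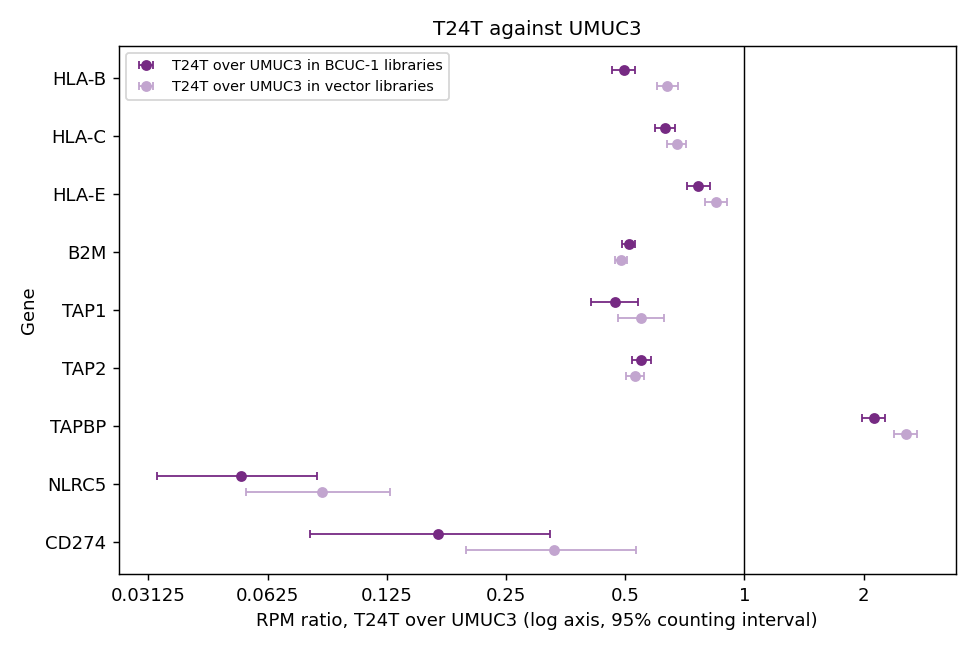
RPM ratio of T24T over UMUC3 for each gene, in the BCUC-1 libraries and in the vector libraries, on a log axis with exact 95% counting intervals and a line at equality. TAPBP alone lies to the right, at 2.12 and 2.56, and NLRC5 lies farthest to the left, at 0.0537 and 0.0856.

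Ordered per length, HLA-C was the most abundant of the 9 in both T24T libraries, followed by B2M. In UMUC3 B2M came first and HLA-C next, with intervals that touched in UMUC3 BCUC-1 (57.5 to 60.1 against 53.7 to 57.6 RPKM). HLA-E and TAPBP were neighbours in T24T, and their intervals overlapped in T24T BCUC-1 (22.0 to 24.3 and 21.7 to 23.4 RPKM). HLA-B ranked 5 in T24T and 3 in UMUC3, while TAPBP ranked 4 in T24T and 6 in UMUC3, below TAP2. TAP1 ranked 7 in all 4 libraries. NLRC5 and CD274 came last, and the order of the pair turned over, with CD274 above NLRC5 in T24T and below it in UMUC3. Their intervals overlapped in T24T BCUC-1 only.

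The rest of the pathway did not move as one, and neither did the 15415 genes tested. Among those, 29.6% were called lower in T24T and 40.8% higher. FCGRT, SOCS1, ULBP1, ULBP2 and POU5F1 reached the floor of 1 RPKM in T24T alone, and ERAP2, PSMB9, HLA-DOB, RAET1E, GLDC, ATAT1 and ATP6V1G2 in UMUC3 alone. Like NLRC5, these genes entered the test only through the line in which they were high, so their values describe the libraries and their calls support nothing. In the immunoproteasome, whose subunits replace constitutive ones after interferon and alter the peptides made, 6 of 6 listed genes were tested. PSMB8 had 9.13 and 9.12 RPKM in T24T BCUC-1 and vector against 25.1 and 23.1 RPKM in UMUC3 BCUC-1 and vector, a limma difference of -1.31. PSMB9, which faces TAP1 across a shared promoter region, had 0.883 and 0.701 RPKM in T24T, under the floor, against 2.33 and 1.98 RPKM in UMUC3, a difference of -0.82. PSMB10 (0.90), the activator subunit PSME1 (1.04) and the assembly factor POMP (0.41) were higher in T24T, and PSME2 (0.19, limma adjusted p = 0.0572) did not pass. Of the 3 constitutive catalytic subunits PSMB6 (-0.30) and PSMB7 (-0.49) were lower in T24T and PSMB5 (-0.055) did not pass.

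In the list of peptide loading and trimming genes 6 of 10 were higher in T24T and 4 lower. For all genes tested the shares were 40.8% higher and 29.6% lower. The peptidase ERAP2 (-1.25) and the tapasin-related TAPBPL (-0.77) were among the lower, and the oxidoreductase PDIA3 (0.77) and the glucosyltransferase UGGT1 (0.86) among the higher, and ERAP2 passed the floor through UMUC3 alone. Of 8 other class I-like heavy chain genes 4 were tested. HFE, a regulator of iron uptake (1.19), FCGRT, the neonatal Fc receptor chain (1.17), and HLA-F (0.35) were higher in T24T, and 1 was lower. FCGRT passed the floor through T24T alone.

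Regulators of class I were split, where 29.6% of all genes tested were called lower in T24T and 40.8% higher. Of 8 genes for the complex that binds class I promoters and recruits NLRC5, 3 were lower in T24T, 4 higher and 1 did not pass. RFX5, the DNA-binding subunit that recognises the X box, had 10.5 and 10.7 RPKM in T24T BCUC-1 and vector and 22.5 and 21.8 RPKM in UMUC3 BCUC-1 and vector, a limma difference of -0.997. NFYC (-0.71) and ATF1 (-0.67) were lower too, while NFYA (0.57) was higher. Of 16 interferon receptor and JAK-STAT genes, 10 were higher in T24T, 2 were lower and 4 did not pass. The receptor chain IFNGR2 (1.21), STAT3 (1.18), the kinase TYK2 (0.85) and the feedback inhibitor SOCS1 (1.71) were among the higher. SOCS1 had 4.01 and 4.41 RPKM in T24T against 0.503 and 0.678 RPKM in UMUC3, both under the floor. JAK2 (-0.70) was lower. IRF1, a transcription factor induced by interferon gamma, missed the threshold (-0.16, limma adjusted p = 0.211).

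**Figure D3:**
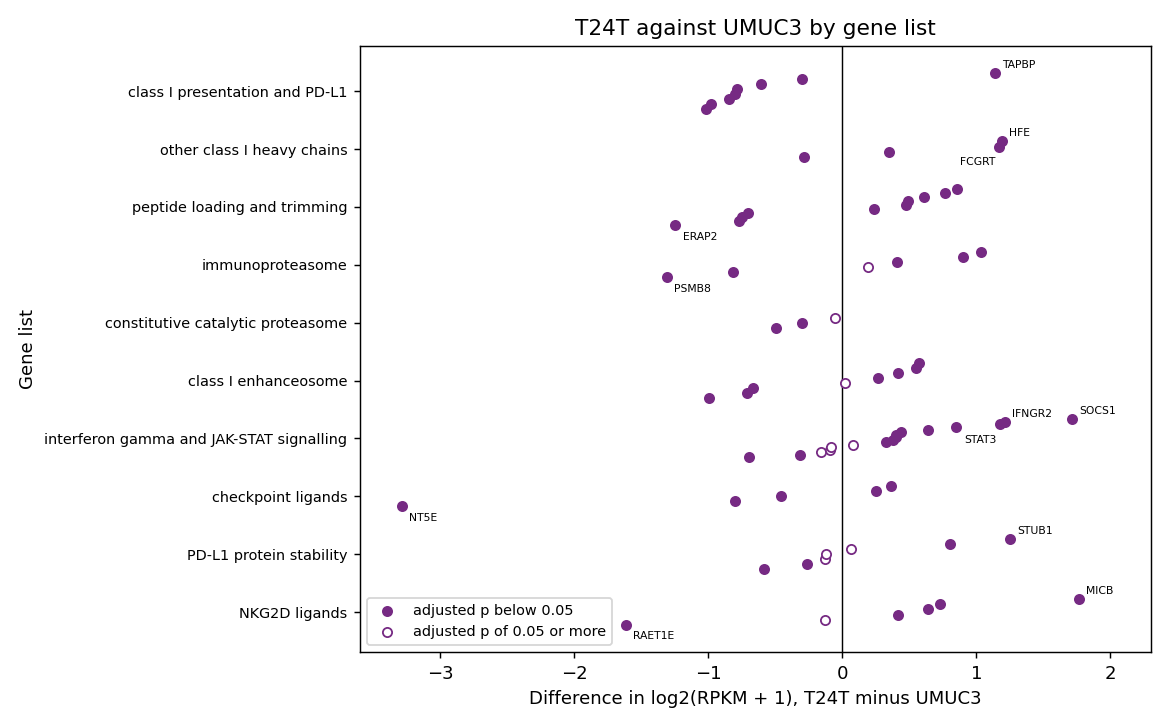
T24T minus UMUC3 difference in log2(RPKM + 1) of the tested genes of 10 lists, filled where the limma adjusted p was below 0.05 and open otherwise, with labels on differences of at least 1.1. The class I presentation row has 7 genes on the left and TAPBP on the right, while most other rows have filled points on both sides of 0.

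Class II presentation genes other than HLA-DOB were at most 0.677 RPKM. Of 13 listed, 1 could be tested, HLA-DOB, a modulator of peptide exchange, at 0.525 and 0.546 RPKM in T24T BCUC-1 and vector and 2.06 and 1.22 RPKM in UMUC3 BCUC-1 and vector (-0.76), with both T24T libraries under the floor. The class II transactivator CIITA stood at 0.310 and 0.271 RPKM in T24T and 0.179 and 0.193 RPKM in UMUC3, and HLA-DRA was listed at 0 in both T24T libraries.

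Of 13 listed checkpoint ligands besides CD274, 5 were tested, 3 lower and 2 higher in T24T. For this and the next 2 lists, the shares over all genes tested were 29.6% lower and 40.8% higher. NT5E, the ectoenzyme that makes adenosine, had 7.09 and 5.97 RPKM in T24T BCUC-1 and vector and 71.9 and 72.9 RPKM in UMUC3 BCUC-1 and vector (-3.29). CD47, a signal against phagocytosis (-0.80), and PVR, a ligand of TIGIT (-0.46), were lower as well, and CD276 (0.36) was higher. TNFRSF14, the receptor that binds BTLA, had no reads in either T24T library and 117 and 156 reads in UMUC3 BCUC-1 and vector. PDCD1LG2, the gene of PD-L2 beside CD274, was at most 0.0319 RPKM. Of 7 listed genes that act on PD-L1 protein, 2 were lower, 2 higher and 3 did not pass. CMTM6, which keeps PD-L1 at the membrane (-0.27), and COPS5 (-0.58) were the lower, and the ubiquitin ligase STUB1 (1.248) and CSNK2A1 (0.80) the higher. Of 8 listed ligands of the NKG2D receptor of natural killer cells, 6 were tested, 4 higher in T24T, 1 lower and 1 not passing. MICB (1.77), ULBP1 (0.64) and ULBP2 (0.73) were among the higher, and RAET1E (-1.62) was the lower. Of these 6 genes, ULBP1, ULBP2 and RAET1E were above the floor in 1 line alone.

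Of 15 listed genes next to CD274 on 9p24, 12 were tested, 7 lower in T24T, the direction of CD274, 1 higher and 4 not passing. Over all genes tested 29.6% were lower and 40.8% higher. The median log2(RPKM + 1) difference of the 12 was -0.35, and GLDC passed the floor through UMUC3 alone. JAK2 (-0.70), KDM4C (-0.61) and GLDC (-1.83) were among the lower and ERMP1 (0.58) was the higher. Of 24 genes near HLA-E, HLA-C and HLA-B on 6p21, 23 were tested, 7 lower, 5 higher and 11 not passing. Among genes above the floor in both lines, IER3 (1.39) and DDR1 (0.86) were higher in T24T. ATAT1 (-1.76), above the floor in UMUC3 alone, and POU5F1 (2.01), above it in T24T alone, had the lowest and highest values of the list.

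Among 11090 genes with at least 100 reads in every library, those closest to CD274 in pattern over the 4 libraries were NEAT1, NEAT1_1, NEAT1_3, MAGI1 and ZNF333. Likeness was the Euclidean distance between gene-centred log2 RPM, which ran from 0.404 to 0.529. The NEAT1 entries belong to the same noncoding RNA gene, and NEAT1 had 12215 and 16678 reads in T24T BCUC-1 and vector and 45110 and 55189 in UMUC3 BCUC-1 and vector. For HLA-B the closest were PLEKHG3, CLPB, GRINA, DUSP22 and PHLDB1, at distances of 0.0342 to 0.0463. CD274 itself had 11 to 78 reads per library, under the minimum of 100 set for the other genes, so its pattern carries counting error. With 4 libraries such distances describe these libraries only.

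The study asked which genes respond to BCUC-1. None of the 8 testable members was called by limma over both lines, where 0.0% of 15415 genes were called higher and 0.0% lower, 652 had an unadjusted p below 0.05 and the smallest adjusted p was 0.104. Limma-voom on the same genes called 3 higher and 10 lower, none of them a member. The log2(RPKM + 1) differences of the members lay between -0.047 for HLA-E (SE 0.072) and 0.089 for NLRC5 (SE 0.10), each with a limma adjusted p of 0.998. With limma-voom and 20 reads over the 4 libraries CD274 stood at -0.34 (SE 0.30, limma-voom adjusted p = 0.999), where 0.0197% of genes were called higher and 0.0443% lower. No list gene was called either, and the smallest limma adjusted p in every list with a tested gene was 0.998. The model had 1 residual degree of freedom, so a p above the threshold does not show equal levels.

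In T24T, 7 of the 9 genes had RPM ratios of BCUC-1 to vector between 0.918 and 1.04. HLA-B had 1407 reads with BCUC-1 and 1532 with vector, an RPM ratio of 0.922 (0.857 to 0.992), and HLA-E had 1622 and 1774 reads, a ratio of 0.918 (0.858 to 0.982). TAPBP had a ratio of 0.943 (0.894 to 0.994), while HLA-C (0.984), TAP1 (0.988), B2M (1.00) and TAP2 (1.04) had intervals that included 1. NLRC5 had 21 and 26 reads, a ratio of 0.811 (0.434 to 1.499). CD274 had 11 and 23 reads, a ratio of 0.480 (0.211 to 1.03), so a change could not be detected at this depth. A gene counted as different within a line at a log2 RPM difference of at least 0.32. None of the 8 members above the floor of 1 RPM did so in T24T, where 2.84% of genes were higher and 7.55% lower. Over the 9 genes the median log2 RPM difference was -0.085, against -0.023 over 16084 genes.

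In UMUC3, 6 of the 9 genes had ratios above 1. NLRC5 had 377 reads with BCUC-1 and 340 with vector, an RPM ratio of 1.29 (1.11 to 1.501). It was the only member past the log2 difference of 0.32, where 9.64% of genes were higher and 5.64% lower. HLA-B had 2738 and 2682 reads, a ratio of 1.19 (1.13 to 1.26), TAP1 648 and 655 reads, a ratio of 1.15 (1.03 to 1.29), and TAPBP 1225 and 1255 reads, a ratio of 1.14 (1.05 to 1.23). HLA-C was at 1.05 (1.00 to 1.11), HLA-E at 1.02 (0.959 to 1.08), TAP2 at 0.999 (0.955 to 1.04), B2M at 0.955 (0.928 to 0.984) and CD274 at 0.942 (0.665 to 1.33). The median was 0.076 on log2 RPM, against 0.038 over 15686 genes.

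**Figure D4:**
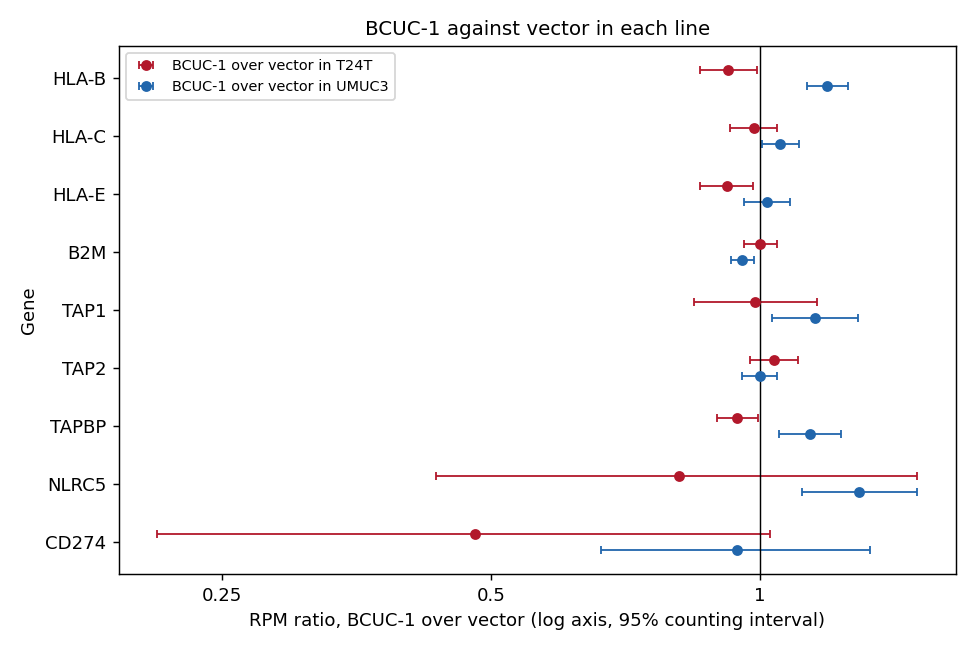
RPM ratio of BCUC-1 over vector for each gene in T24T and in UMUC3, on a log axis with exact 95% counting intervals and a line at equality. HLA-B lies at 0.922 in T24T and 1.19 in UMUC3, and CD274 in T24T, at 0.480, has the widest interval.

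The UMUC3 differences moved with base composition. The median log2 RPM difference over all genes was -0.19 in the lowest and 0.24 in the highest of 20 GC bins in UMUC3, and -0.039 in both of those bins in T24T. Transcripts of HLA-B (59.0% GC), HLA-C (62.7%), TAP1 (57.5%), TAPBP (57.6%) and NLRC5 (58.0%) are GC-rich, and those of B2M (40.6%) and CD274 (40.9%) are not. With the trend removed, the UMUC3 log2 differences were 0.11 for HLA-B, -0.12 for HLA-C, -0.091 for HLA-E, 0.018 for B2M, 0.066 for TAP1, -0.051 for TAP2, 0.042 for TAPBP, 0.22 for NLRC5 and -0.019 for CD274. Their median was 0.018, and NLRC5 was then no longer past 0.32.

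**Figure D5:**
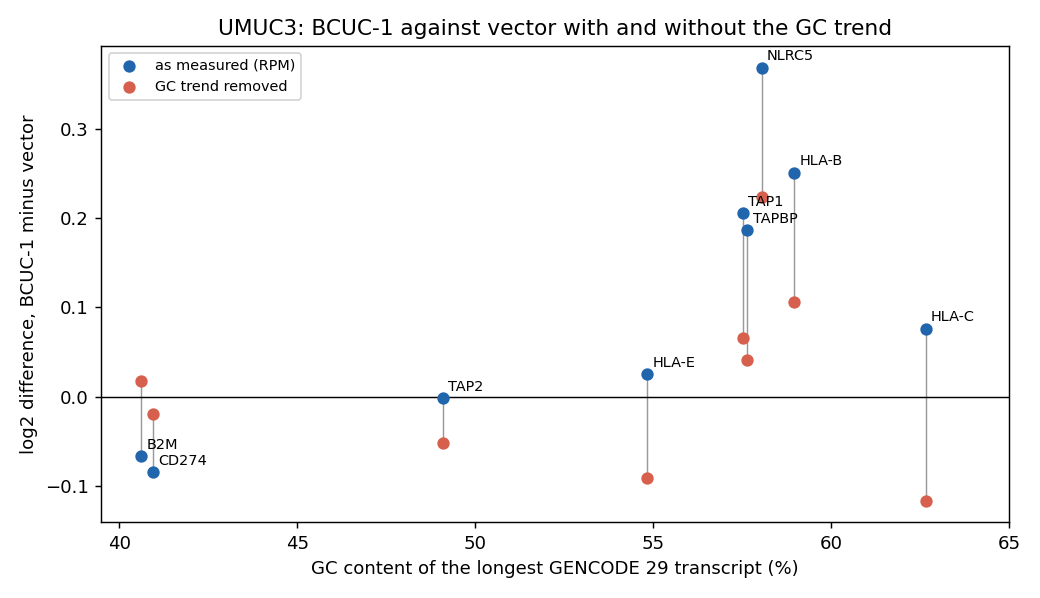
UMUC3 log2 RPM difference of BCUC-1 minus vector against the GC content of the longest GENCODE 29 transcript, as measured and with the GC trend over all genes removed, joined by a line for each gene. NLRC5 moves to 0.22 from 0.37 and HLA-C to -0.12 from 0.076 once the trend is removed.

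In the other lists no gene was called by limma for BCUC-1, and within a line there was no test. PSMB9 stood at 0.32 in T24T and 0.24 in UMUC3 on log2 RPM, PSMB10 at -0.013 and 0.26, HLA-F at -0.25 and 0.42, TAPBPL at -0.56 and 0.24, and HLA-DOB at -0.052 and 0.74. SOCS1 was at -0.13 and -0.39, IFNAR2 at -0.21 and -0.10, CREB1 at -0.072 and -0.29, RFXANK at -0.040 and 0.29 and NT5E at 0.25 and -0.020. Of these, PSMB9 had positive values in both lines and SOCS1, IFNAR2 and CREB1 had negative values in both. The genes were picked by their mean BCUC-1 difference over the lines, which favours equal signs, so this agreement supports nothing. Other genes picked in this way are not named here. Over 14499 genes above the floors in both lines, 51.2% had opposite signs. SOCS1 had 14 and 22 reads in UMUC3 BCUC-1 and vector. The GC trend was not removed from these values.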

How the data were processed

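RNA sequencing was performed on T24T and UMUC3 bladder cancer cells carrying BCUC-1 or vector, with 1 library in each of 4 groups, assigned by title. The deposited RPKM values were computed by the authors from reads divided by the length in kilobases and by each 1000000 assigned reads, as a check of the values showed. Gene lengths in bases are given per the file headers. Per the submitters' processing notes, Bowtie 0.12.2 was among the tools. Its settings, the build and the gene models used are not given in these sources. Coordinates matched GRCh38, where 96.8% of 22720 symbols found once in GENCODE 29 had the same start or end. RPKM times length was a whole multiple of 1 step for 100% of genes, within 0.001 reads, so read counts were recovered.

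Lines and treatments were compared with limma-trend (limma 3.58.1, R 4.3.3) on log2(RPKM + 1), keeping genes that reached 1 RPKM in 2 libraries (two-sided, Benjamini-Hochberg over all genes tested, adjusted p of 0.05). Line and treatment were the model's terms, with 1 residual degree of freedom. Limma-voom on recovered reads was run as an alternative. Within a line there was no test. Reads per 1000000 assigned (RPM) were compared with a prior count of 2, and ratios carry exact Clopper-Pearson 95% intervals. RPKM levels carry exact Poisson 95% intervals. All intervals cover counting error only. A gene counted as different within a line at a log2 RPM difference of at least 0.32, given 1 RPM in either library and 20 reads over both. The GC trend was the median difference in 20 GC bins, using the longest GENCODE 29 transcript of each symbol. GC was known for 80.7% of the genes above the RPKM floor and for 9 of 9 members. The members and the 15 other gene lists were chosen with earlier results of these data known. Named genes were the members, up to 4 genes of each list by line difference, up to 2 by BCUC-1 difference, and the 5 genes closest in pattern to CD274 and to HLA-B. All other named genes were chosen after their values were seen.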

Additional observations from a re-analysis of the deposited data

Results flagged for a closer look

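The BCUC-1 minus vector log2 RPM difference had opposite signs in T24T and UMUC3 for 8 of the 9 genes, and CD274 was lower in both lines. Of 14499 genes above the floors in both lines, 51.2% had opposite signs, and the medians over all genes were -0.023 in T24T and 0.038 in UMUC3. With 1 library per group the difference between the lines was not tested. HLA-B stood at -0.12 in T24T and 0.25 in UMUC3, and TAPBP at -0.085 and 0.19, both with counting intervals on opposite sides of equality. The share of all genes with such intervals is not given here. With the GC trend removed, the UMUC3 values were 0.11 for HLA-B and 0.042 for TAPBP, each outside its counting interval. The T24T and UMUC3 values were -0.28 and 0.37 for NLRC5, -0.017 and 0.21 for TAP1, -0.023 and 0.076 for HLA-C, and -0.12 and 0.026 for HLA-E. B2M (0.00084 in T24T and -0.066 in UMUC3) and TAP2 (0.053 and -0.0013) had the reverse order of signs, each with 1 value close to 0. With the libraries scaled to equal medians, 5 of the 9 genes had opposite signs, against 52.2% of all genes. HLA-C (0.011 in T24T and 0.037 in UMUC3), TAP1 (0.017 and 0.17) and HLA-E (-0.090 and -0.014) then had the same sign in both lines. With the GC trend of each line removed, 5 of the 9 genes had opposite signs, against 53.0% of 12153 genes. The 5 were HLA-B, TAPBP, NLRC5, TAP2 and HLA-C. HLA-C stood at 0.017 in T24T and -0.12 in UMUC3, with the signs exchanged, and HLA-E, B2M and TAP1 had the same sign in both lines.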

How the results depend on the processing

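Between T24T and UMUC3, members kept their direction and call in 86 of 88 alternatives with a test, and their direction in 18 comparisons of single libraries with no test. The exceptions were HLA-E with no filter on low values (-0.30, limma adjusted p = 0.0569) and HLA-E without the T24T BCUC-1 library (-0.24, limma adjusted p = 0.0811). No member changed its direction between the lines. The alternatives include those of NLRC5, which had to differ wherever the floor of 1 RPKM was kept. They also include CD274, whose reference fit was added with the data in view. Requiring 5 RPKM called 3773 genes higher in T24T and 3007 lower, with fewer genes tested. Leaving out 1 library at a time, with the lone library assumed to vary like the others, gave 4569 to 6067 higher and 3186 to 4403 lower. With the libraries scaled to equal medians, 5276 genes were called higher in T24T and 5551 lower, against 6289 and 4558.

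For BCUC-1 over both lines, 0 genes were called in the main test. The counts higher and lower were 26 and 34 with 5 RPKM required, 2 and 2 under equal medians, 3 and 10 by limma-voom, and 4 and 9 by limma-voom with 20 reads. A pseudocount of 0.1 gave 1 lower. The cause of these changes was not tested. Within T24T, where 456 genes were higher by at least 0.32 on log2 RPM and 1214 lower, log2(RPKM + 1) gave 131 and 334, and at least 1000 reads in the pair gave 2 and 31. Removing the GC trend gave 723 lower. Within UMUC3, where 1512 were higher and 885 lower, the counts were 524 and 345 on log2(RPKM + 1), 619 and 523 without the GC trend, and 154 and 155 with 1000 reads. With the GC trend removed in UMUC3, HLA-B stood at 0.11, HLA-C at -0.12, HLA-E at -0.091, B2M at 0.018 and TAPBP at 0.042, each outside its counting interval. The labels give no replicate numbers and each group held 1 library, so libraries could be paired only by line. The main BCUC-1 test compared libraries within a line through its line term. Without that term 0 genes were called. With 11 to 78 reads per library, depth limits any statement on CD274.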
